A study of Homo sapiens with 12 samples.

Results

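The collagen genes of RBE and HCCC9810, 2 established human lines of intrahepatic cholangiocarcinoma (cancer of bile ducts within the liver), are described here with and without anlotinib, an oral inhibitor of several receptor tyrosine kinases. A gene was a member where its symbol in the count table was COL, a number, A and a number with nothing after it, and its listed type was protein-coding. This gave 44 genes of 58216, and 9 other symbols with the same beginning, such as COL4A3BP and antisense genes, were left out. Messenger RNA levels had been read by RNA sequencing in 4 groups of 3 libraries, labelled as biological replicates: RBE cells with 5 µM anlotinib, RBE control cells, HCCC9810 cells with 5 µM anlotinib and HCCC9810 control cells, all taken at 24 h. Anlotinib was added in dimethyl sulfoxide, whose final concentration was 0.1%, and whether control cultures received it is not given in the sources used here. No label names added stromal cells.

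Collagens are secreted or membrane-bound proteins in which 3 chains wind into a triple helix, and chains of one type number usually share a molecule. Fibrillar collagens (types I, II, III, V, XI, XXIV and XXVII) build the cables of connective tissue, type IV forms the sheet-like network of basement membranes under epithelia, and the other types coat fibrils, anchor basement membranes, form beaded filaments or span the cell membrane. In tumours of the bile ducts much of the fibrillar collagen is known to come from fibroblasts of the stroma, while epithelial cells make basement membrane collagen themselves.

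The upstream sequences of the members on which the results turn most are shown first. COL5A1 fell with anlotinib in both lines, COL12A1 moved in opposite directions, and COL13A1 and COL17A1 fell in RBE with an effect that differed from that in HCCC9810. Each sequence ends at the base before the RefSeq start of the gene or before the nearest annotated exon, runs 5′ to 3′ on the strand of the gene, and comes from RefSeq on GRCh38.p14, where 32 of the 44 members had an entry. Capitals mark matches, on either strand, of GGGCGG (the core of a GC box, which reads CCGCCC when it lies on the other strand), CCAAT (the CCAAT box, there ATTGG) and TATAAA (the TATA box), and no matches overlapped.
COL5A1: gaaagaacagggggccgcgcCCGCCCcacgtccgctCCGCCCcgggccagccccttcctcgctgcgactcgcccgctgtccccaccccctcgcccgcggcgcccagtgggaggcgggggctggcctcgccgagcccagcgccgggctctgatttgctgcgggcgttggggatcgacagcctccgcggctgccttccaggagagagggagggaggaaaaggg
COL12A1: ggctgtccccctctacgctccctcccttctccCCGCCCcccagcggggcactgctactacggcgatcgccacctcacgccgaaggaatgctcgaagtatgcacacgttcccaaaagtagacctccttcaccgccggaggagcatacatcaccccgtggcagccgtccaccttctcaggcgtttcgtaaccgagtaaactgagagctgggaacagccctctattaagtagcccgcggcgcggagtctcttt
COL13A1: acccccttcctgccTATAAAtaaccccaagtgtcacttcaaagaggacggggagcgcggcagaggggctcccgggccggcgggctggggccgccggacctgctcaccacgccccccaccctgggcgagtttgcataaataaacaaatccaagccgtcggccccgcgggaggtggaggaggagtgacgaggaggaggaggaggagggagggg
COL17A1: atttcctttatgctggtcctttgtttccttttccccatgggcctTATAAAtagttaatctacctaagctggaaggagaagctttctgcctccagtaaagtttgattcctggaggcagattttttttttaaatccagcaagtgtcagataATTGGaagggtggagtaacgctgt
The COL5A1 stretch (chr9:134641553-134641773, plus strand) was 75.6% G and C and held 2 GC box cores, and 41.3% of all 35116 promoters held at least 1 in a window of the same length. The COL12A1 stretch (chr6:75206054-75206303, minus strand) was 61.2% G and C and held 1 GC box core, and 42.6% of all promoters held at least 1. The COL13A1 stretch (chr10:69801656-69801866, plus strand) held 1 TATA box, and 9.12% of promoters held at least 1. The COL17A1 stretch (chr10:104085958-104086130, minus strand) was 40.5% G and C and held 1 TATA box, found in 7.52% of promoters, and 1 CCAAT box, found in 25.6%. The windows behind these shares were matched in length. It is not shown that they lay at the same distance from the start as each stretch. Both TATAAA matches lay nearer the distal end of their stretch than the end next to the gene. A match is a description of the letters, not of a site in use.

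Total counts ran from 18227987 to 40963529 in RBE anlotinib libraries, from 17779598 to 31956474 in RBE control, from 15215193 to 17722970 in HCCC9810 anlotinib and from 16240478 to 22567927 in HCCC9810 control libraries. Libraries are named by the number in their column header, which runs 4 to 6 in RBE anlotinib, 1 to 3 in RBE control, 10 to 12 in HCCC9810 anlotinib and 7 to 9 in HCCC9810 control. All 12 of these numbers belong to sample titles of the other treatment of the same line, and directions are taken here from the treatment words of the headers: under the titles' numbers every sign of a treatment effect would turn and its size would stay. The libraries called control here would then be the treated ones, so levels in untreated cells and the comparison of the untreated lines would change in size too. For COL12A1 that comparison would set 49.4 CPM in RBE against 58.0 CPM in HCCC9810, in place of 25.2 CPM against 111 CPM. RBE anlotinib 6 and HCCC9810 control 7 stood farthest from their groups, at a root mean square log2 distance of 0.350 and 0.330 over the genes tested, against 0.143 to 0.299 in the other libraries. Within groups the distances followed the GC content of genes, with Spearman's rho from -0.556 to 0.585 by library, so counts of called collagen genes are also given without libraries 6 and 7 and after a correction for GC content and length.

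Collagen messenger RNA was made by both lines, and the mix of types differed. Levels are compared between genes as RPKM (reads per kilobase of gene and per unit of library depth), the length-scaled value the authors deposited. Ranks, shares and ratios between genes thus also rest on the gene length it divides by. Of the 44 members, 16 had a mean of at least 1 RPKM in RBE anlotinib cells, 16 in RBE control cells, 11 in HCCC9810 anlotinib cells and 13 in HCCC9810 control cells. In RBE the first place was held by COL18A1, a multiplexin of basement membranes whose end fragment is endostatin, at 49.9 ± 5.04 RPKM with anlotinib and 55.2 ± 9.41 RPKM in control cells (mean ± SD, n = 3 each). It made up 34.5% of the summed collagen RPKM of RBE anlotinib cells and 32.8% of that of control cells. Exons of other genes on either strand overlap 16.4% of its exon bases, with the largest part from SLC19A1. It may share reads with them because the strand setting of the counting is not stated. After it in RBE control cells came the transmembrane COL13A1 (25.2 ± 4.11 RPKM) and the basement membrane COL4A2 (20.2 ± 3.35 RPKM). The ranges of COL13A1 and COL4A2 overlapped, and control library 2 was the lowest for both.

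In HCCC9810 control cells the fibrillar COL5A1 led at 69.1 ± 6.72 RPKM, 28.3% of the collagen sum, followed by COL4A2 at 38.3 ± 1.18 RPKM. With anlotinib, 5 genes of HCCC9810 stood close together, from COL6A1 at 30.5 ± 4.45 RPKM through COL18A1, COL5A1 and COL17A1 to COL4A2 at 23.7 ± 2.098 RPKM, and the range of each overlapped that of its neighbours in this order. In CPM the highest mean in HCCC9810 anlotinib cells was that of COL4A2, at 497 ± 48.1, and COL6A1 had 177 ± 28.3. The major fibrillar collagens of connective tissue were low in every group: COL1A1 averaged at most 1.72 RPKM, COL3A1 at most 1.42 RPKM and COL1A2 at most 0.0840 RPKM. The summed collagen RPKM was 126 to 157 in RBE anlotinib libraries and 144 to 181 in RBE control libraries, which overlap, and 152 to 186 in HCCC9810 anlotinib libraries against 241 to 249 in HCCC9810 control libraries, which do not.

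**Figure D1:**
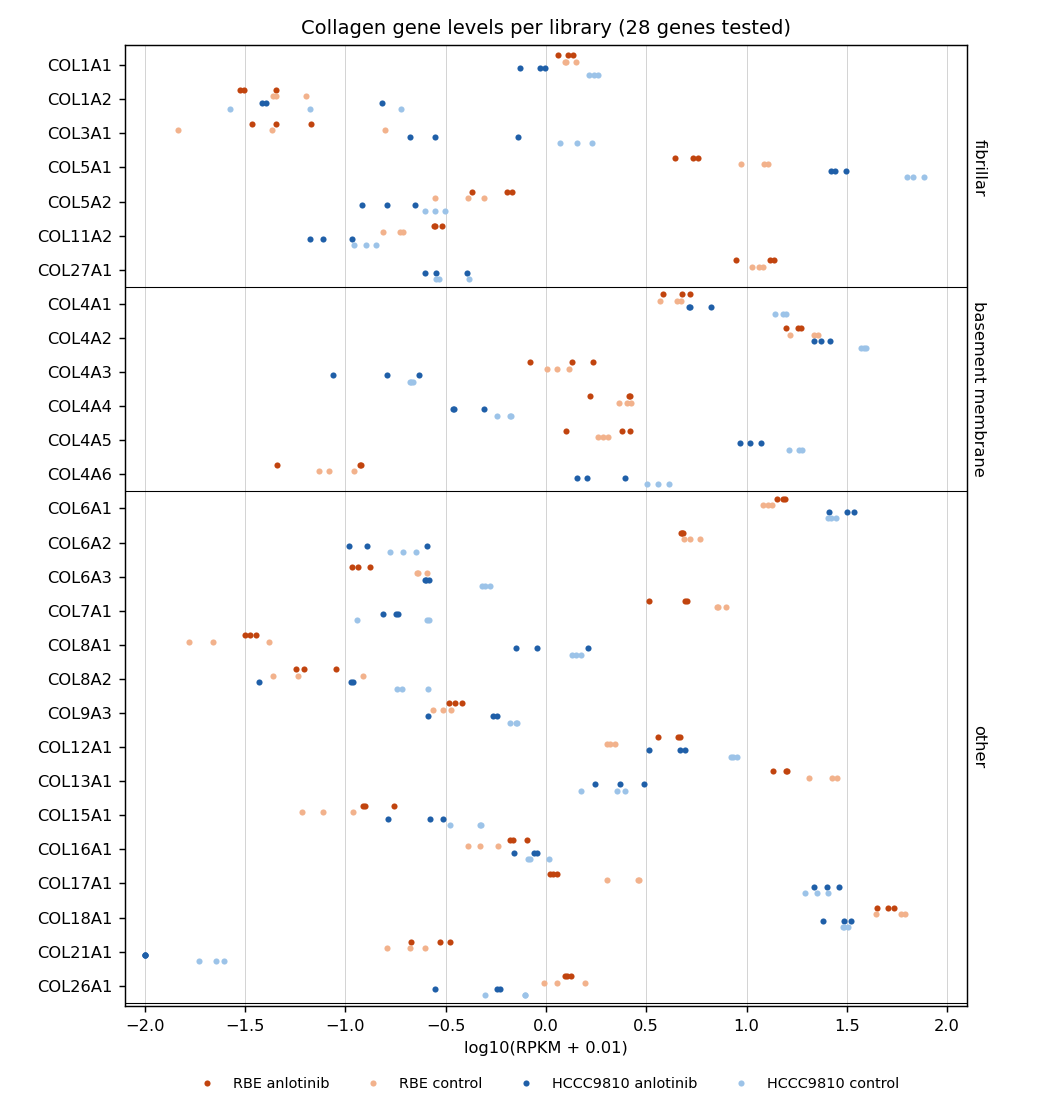
Levels of the 28 tested collagen genes in each of the 12 libraries, as log10(RPKM + 0.01) on the horizontal axis, grouped into fibrillar, basement membrane and other types; each point is a library and colours mark the 4 groups. COL18A1 lies farthest right in RBE, COL5A1 in HCCC9810 control cells, and COL1A2 lies left of 0 in all 12 libraries.

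Of the 44 members, 16 had too few counts for a test, with 0 to 35 counts in any library. They were the fibrillar COL2A1, COL5A3, COL11A1 and COL24A1, the type VI chains COL6A5 and COL6A6, the type IX chains COL9A1 and COL9A2, and COL10A1, COL14A1, COL19A1, COL20A1, COL22A1, COL23A1, COL25A1 and COL28A1. The cartilage collagens of types II, IX and X are thus represented by COL9A3 alone, at 0.343 ± 0.0283 RPKM in RBE anlotinib, 0.295 ± 0.0314 in RBE control, 0.447 ± 0.172 in HCCC9810 anlotinib and 0.684 ± 0.0312 in HCCC9810 control cells. COL28A1 reached the highest of these counts, 25, 35 and 6 in RBE anlotinib libraries and 7, 5 and 16 in RBE control libraries. A gene that passed the filter through the line where it was high was more likely to differ between lines, so the line comparison that follows is a description. Tests used edgeR's quasi-likelihood model on the counts, with Benjamini-Hochberg adjustment over 18035 genes and an adjusted p below 0.05 as a call, and every adjusted p below comes from it unless another tool is named.

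The untreated lines differed in the collagen chains they expressed. In RBE control cells 9 of the 28 tested members were higher and 16 lower than in HCCC9810 control cells, where 31.5% of all genes tested were higher and 32.6% lower in RBE, 64.1% in all. COL7A1, the anchoring fibril collagen of the zone below epithelia, averaged 78.97 ± 4.38 CPM in RBE control and 2.31 ± 0.997 CPM in HCCC9810 control cells (CPM, counts scaled to library size, mean ± SD, n = 3 each; log2 difference 5.11 ± 0.24). The fibrillar COL27A1, known from growth plate cartilage, showed a gap of the same order, at 153 ± 8.30 CPM in RBE control and 4.61 ± 0.990 CPM in HCCC9810 control cells (5.04 ± 0.20). COL13A1 (3.51 ± 0.20), COL6A2 (4.73 ± 0.22) and COL21A1 (3.81 ± 0.45) were also higher in RBE. Higher in HCCC9810 were COL8A1, a short-chain network collagen (-6.45 ± 0.39), COL4A6 (-5.61 ± 0.30), COL3A1 (-4.61 ± 0.63) and COL17A1 (-3.21 ± 0.16). Within type IV the chain pairs split: the pair of COL4A3 (2.39 ± 0.27) and COL4A4 (1.89 ± 0.17) was higher in RBE, and the pair of COL4A5 (-3.32 ± 0.19) and COL4A6 lower. COL1A2, COL5A2 and COL11A2 were not called between the control lines (adjusted p = 0.141, 0.194 and 0.182). The call of COL26A1 (0.76 ± 0.27) ended without RBE control 3 or HCCC9810 control 8 (adjusted p = 0.0909 to 0.109). COL1A2 was called without HCCC9810 control 7 (adjusted p = 0.0329) and COL5A2 without RBE control 3 (adjusted p = 0.0355).

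Whether anlotinib moved collagen transcripts was asked in each line. In RBE 3 of the 28 tested members rose and 5 fell, beside 9.37% of all genes that rose and 8.32% that fell (17.7% in all), and the median log2 change of the members was -0.0032 against 0.02 over all genes. In HCCC9810 11 fell and 0 rose, where 12.8% of all genes fell and 11.1% rose (23.9% in all), and the median of the members was -0.62 (-0.61 without COL21A1, which had no counts in the treated libraries) against -0.05 over all genes. For the rises in HCCC9810, 1 member had an unadjusted p below 0.05 and DESeq2 called 0 up. Called down in both lines were 2 of the 28, COL5A1 and COL6A3, beside 1.76% of all genes, and 1, COL12A1, was called in both with opposite signs, beside 1.95% of all genes. The effect in RBE minus that in HCCC9810 was called as a difference for 9 members, 7 positive and 2 negative, beside 8.92% and 7.66% of all genes (16.6% in all). These counts move when 1 library is left out. Without RBE control 1 or 3, RBE anlotinib 4 or 5 or HCCC9810 control 8, 1 collagen rose in RBE in place of 3, and without HCCC9810 anlotinib 11, 1 rose in HCCC9810. Over all genes, 745 to 1859 fell in RBE in place of 1500, with 745 to 844 without RBE control 1 or 3 or RBE anlotinib 4 or 5, and 1056 rose in place of 1689 without RBE control 1. In HCCC9810 1113 and 1115 rose, in place of 1997, without control 8 and without control 9, and 1292 to 1529 fell, in place of 2306, without control 8 or 9 or anlotinib 12. For the difference, 836 to 2467 genes were positive in place of 1608 and 627 to 2398 negative in place of 1382, both highest without RBE anlotinib 6. The positive ones fell by over 1.5 times without RBE control 1 or 3, RBE anlotinib 4 or 5 or HCCC9810 control 8 or 9, and the negative ones without any 1 of these or HCCC9810 anlotinib 12. The 7 positive collagen differences became 11 without RBE anlotinib 6, 4 without RBE control 1 or 3 or RBE anlotinib 4, and 3 without RBE anlotinib 5, HCCC9810 control 8 or 9 or HCCC9810 anlotinib 12. This difference uses the same control libraries as the effects themselves. In total RNA of a culture, fewer cells of a kind and less RNA per cell cannot be told apart. Spearman's rho between log2 change and GC content was -0.230 over 28 members in RBE (-0.034 over all genes) and 0.402 over 27 members in HCCC9810 (0.301 over all genes), given as a description, since genes of the same libraries are not independent. Without libraries 6 and 7 the counts called were 9 in RBE, 11 in HCCC9810 and 13 for the difference, and after the GC and length correction they were 8, 13 and 9. Over all genes, 3097 rose in HCCC9810 in place of 1997 and 2495 fell in RBE in place of 1500 without libraries 6 and 7. The difference was then positive for 3172 genes in place of 1608 and negative for 3241 in place of 1382. After the correction 2498 genes fell in RBE and 2281 differences were negative. The other all-gene counts of these settings moved by at most 1.5 times.

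**Figure D2:**
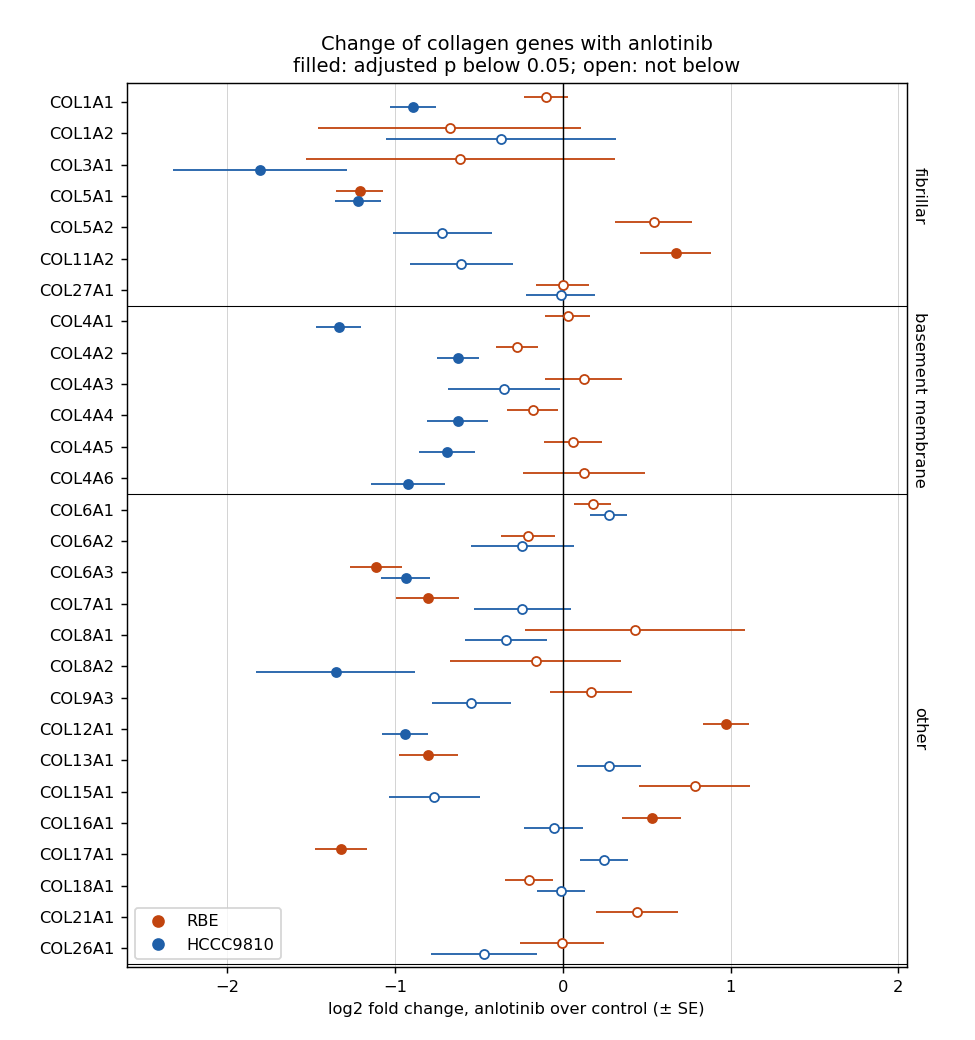
Log2 fold change of each tested collagen gene, anlotinib over control, with its standard error, in RBE (orange-red) and HCCC9810 (blue); filled points have an adjusted p below 0.05, and COL21A1 is not drawn for HCCC9810, where the treated libraries had 0 counts. All filled blue points lie left of 0, while the filled orange-red points lie on both sides, with COL12A1 at 0.97 in RBE and -0.94 in HCCC9810.

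Among the 11 fibrillar genes, 7 were tested: 1 rose and 1 fell in RBE, and 3 fell in HCCC9810. Over all genes tested 9.37% rose and 8.32% fell in RBE, and 12.8% fell in HCCC9810. COL5A1 encodes the chain of type V collagen that starts and limits the growth of collagen fibrils (chromosome 9, 134641774 to 134844843, GRCh38). In RBE it had 54.3, 57.2 and 48.7 CPM in anlotinib libraries, against 131, 101 and 139 CPM in control libraries (log2 fold change -1.21 ± 0.14, adjusted p = 4.22e-05). In HCCC9810 it had 377, 313 and 345 CPM in anlotinib libraries, against 934, 763 and 714 CPM in control libraries (log2 fold change -1.22 ± 0.14, adjusted p = 3.58e-05). All treated libraries lay below all controls of their line, and the difference of the effects was 0.01 ± 0.19 (adjusted p = 0.983). A called fall was thus seen in both lines from control levels that were far apart. Its partner chain COL5A2 was measured at 4.25, 4.44 and 3.09 CPM in RBE anlotinib libraries and 3.44, 2.86 and 1.96 CPM in control libraries (0.54 ± 0.23, adjusted p = 0.120), with overlapping ranges. In HCCC9810 it stood at 1.70, 1.19 and 0.925 CPM with anlotinib, against 1.95, 2.02 and 2.28 CPM in control (-0.72 ± 0.29, adjusted p = 0.0887), with the treated libraries below the controls. Neither effect on COL5A2 was called, and their difference was called (1.26 ± 0.37, adjusted p = 0.0327). That difference lost its call without RBE control 3, anlotinib 4 or 5, HCCC9810 control 8 or 9, or anlotinib 11 or 12 (adjusted p = 0.0566 to 0.0810), and the RBE effect gained one without anlotinib 6 (adjusted p = 0.0416).

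COL1A1, the main chain of type I collagen (chromosome 17, 50183289 to 50201632), fell in HCCC9810. It had 10.4, 7.64 and 10.2 CPM in HCCC9810 anlotinib libraries, against 17.4, 17.1 and 17.8 CPM in control libraries (log2 fold change -0.89 ± 0.14, adjusted p = 0.000374). In RBE it had 11.3, 11.9 and 11.1 CPM with anlotinib, against 13.2, 11.6 and 12.01 CPM in control (log2 fold change -0.10 ± 0.13, adjusted p = 0.656), and the ranges overlapped. The effects differed by 0.79 ± 0.19 (adjusted p = 0.0118). Its partner COL1A2 was near the limit of detection, with 7, 16 and 4 counts in RBE anlotinib, 16, 7 and 12 in RBE control, 24, 6 and 5 in HCCC9810 anlotinib and 3, 12 and 45 in HCCC9810 control libraries. It was not called in RBE (-0.68 ± 0.79, adjusted p = 0.614) or in HCCC9810 (-0.37 ± 0.69, adjusted p = 0.720), where the control libraries were spread widely. COL3A1, which forms fibrils together with type I (chromosome 2, 188974320 to 189012746), had 5.24, 1.43 and 2.06 CPM in HCCC9810 anlotinib libraries, against 10.5, 8.01 and 11.6 CPM in control (log2 fold change -1.80 ± 0.52, adjusted p = 0.0268). The treated libraries lay below the controls but were spread widely among themselves, and the call ended without control 9, anlotinib 11 or anlotinib 12 (adjusted p = 0.0787 to 0.0892) and with DESeq2 (adjusted p = 0.108). RBE held few COL3A1 counts, with 7, 16 and 3 in anlotinib libraries and 27, 4 and 1 in control libraries (-0.61 ± 0.92, adjusted p = 0.716), and the difference of the effects was not called (1.19 ± 1.07, adjusted p = 0.462).

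COL11A2, a chain of the minor fibrillar type XI of cartilage, was the fibrillar gene that rose in RBE. It had 1.63, 1.77 and 1.79 CPM in RBE anlotinib libraries, against 1.15, 1.19 and 0.947 CPM in control (log2 fold change 0.67 ± 0.21, adjusted p = 0.0405). In HCCC9810 it had 0.708, 0.477 and 0.427 CPM with anlotinib, against 0.739, 0.796 and 0.894 CPM in control (log2 fold change -0.61 ± 0.31, adjusted p = 0.186). The difference of the effects was 1.28 ± 0.37 (adjusted p = 0.0302). Neither call held through all left-out libraries: the RBE call ended without any 1 of the 6 RBE libraries or without HCCC9810 control 8 (adjusted p = 0.0529 to 0.147) and with DESeq2 (adjusted p = 0.101). The call of the difference ended without RBE control 1 or 3, RBE anlotinib 4 or 5, HCCC9810 control 8 or 9, or HCCC9810 anlotinib 11 or 12 (adjusted p = 0.0582 to 0.0874). COL27A1, abundant in RBE, had 165, 172 and 122 CPM with anlotinib and 161, 154 and 145 CPM in control libraries of that line (-0.00 ± 0.16, adjusted p = 1), and its ranges overlapped in both lines.

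Of the 6 basement membrane chains of type IV, 0 were called in RBE and 5 fell in HCCC9810. In RBE 1 of them, COL4A2, had an unadjusted p below 0.05, and DESeq2 called 0. Over all genes tested 17.7% were called in RBE and 12.8% fell in HCCC9810. The difference of the effects was called for 2 of the 6 chains, beside 16.6% of all genes. COL4A1 and COL4A2 encode the chains of the network found in nearly all basement membranes. They lie head to head on chromosome 13, with RefSeq starts 127 bases apart (COL4A1 at 110148963 to 110307233 on the minus strand, COL4A2 at 110305812 to 110513209 on the plus strand, GRCh38). COL4A1 had 63.3, 68.8 and 55.7 CPM in RBE anlotinib libraries, against 63.8, 52.3 and 68.05 CPM in control (log2 fold change 0.03 ± 0.13, adjusted p = 0.923). In HCCC9810 COL4A1 had 105, 80.7 and 85.9 CPM with anlotinib, against 253, 225 and 206 CPM in control (log2 fold change -1.34 ± 0.13, adjusted p = 1.25e-05). The HCCC9810 libraries did not overlap and the RBE libraries did, and the effects differed by 1.37 ± 0.19 (adjusted p = 0.000356). COL4A2 had 314, 323 and 299.6 CPM in RBE anlotinib libraries, against 401, 304 and 427 CPM in control (log2 fold change -0.27 ± 0.13, adjusted p = 0.159). For HCCC9810 the values of COL4A2 were 539, 445 and 508 CPM with anlotinib, against 828, 751 and 721 CPM in control (log2 fold change -0.62 ± 0.13, adjusted p = 0.00300). The difference of the effects was not called for COL4A2 (0.35 ± 0.18, adjusted p = 0.186). RBE control 2 was the lowest RBE control for both genes, and without it the RBE effect on COL4A2 was called at -0.41 (adjusted p = 0.0346).

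The minor type IV chains build the networks of kidney, lung and some epithelia. COL4A5 (chromosome X, 108439844 to 108697545) had 149.8, 131 and 124 CPM in HCCC9810 anlotinib libraries, against 209.8, 226 and 217 CPM in control (log2 fold change -0.69 ± 0.17, adjusted p = 0.00931). COL4A6, its head-to-head neighbour with starts 380 bases apart, had 15.99, 24.3 and 14.7 CPM in HCCC9810 anlotinib libraries, against 41.3, 33.9 and 29.6 CPM in control (log2 fold change -0.92 ± 0.22, adjusted p = 0.00826). Both were clear of overlap in HCCC9810. In RBE, where both genes were less expressed, COL4A5 had 25.5, 27.8 and 14.6 CPM with anlotinib, against 21.7, 22.97 and 20.96 CPM in control (0.06 ± 0.17, adjusted p = 0.863). COL4A6 had 0.925, 0.897 and 0.325 CPM in RBE anlotinib libraries, against 0.896, 0.647 and 0.581 CPM in control (0.13 ± 0.36, adjusted p = 0.864), and the RBE ranges of both overlapped. The difference of the effects was called for COL4A5 (0.75 ± 0.24, adjusted p = 0.0465) and not for COL4A6 (1.05 ± 0.42, adjusted p = 0.100). Leaving out any library other than RBE anlotinib 6 and HCCC9810 control 7 ended the COL4A5 call (adjusted p = 0.0546 to 0.139), and leaving out RBE anlotinib 6 or HCCC9810 anlotinib 11 brought COL4A6 past the threshold (adjusted p = 0.0246 to 0.0357).

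COL4A4 and COL4A3, whose starts are 419 bases apart on chromosome 2, were the type IV pair with the higher control level in RBE. COL4A4 had 3.61, 5.13 and 3.84 CPM in HCCC9810 anlotinib libraries, against 6.18, 6.63 and 6.71 CPM in control (log2 fold change -0.63 ± 0.18, adjusted p = 0.0227), without overlap. That call ended without control 8 or 9 or anlotinib 10 or 12 (adjusted p = 0.0723 to 0.0982). COL4A3 had 1.49, 2.15 and 0.782 CPM in HCCC9810 anlotinib libraries, against 2.02, 1.91 and 1.83 CPM in control (log2 fold change -0.35 ± 0.33, adjusted p = 0.454), and the ranges overlapped. In RBE COL4A4 had 23.7, 23.7 and 16.3 CPM with anlotinib, against 25.5, 24.4 and 22.6 CPM in control (-0.18 ± 0.15, adjusted p = 0.473). COL4A3 had 11.1, 13.96 and 7.43 CPM in RBE anlotinib libraries, against 11.4, 9.81 and 8.92 CPM in control (0.12 ± 0.23, adjusted p = 0.774). Anlotinib library 6 was the lowest RBE library for COL4A3, COL4A4, COL4A5 and COL4A6, and without it the difference of the effects on COL4A4 was called (adjusted p = 0.0494, against 0.204 with all libraries).

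**Figure D3:**
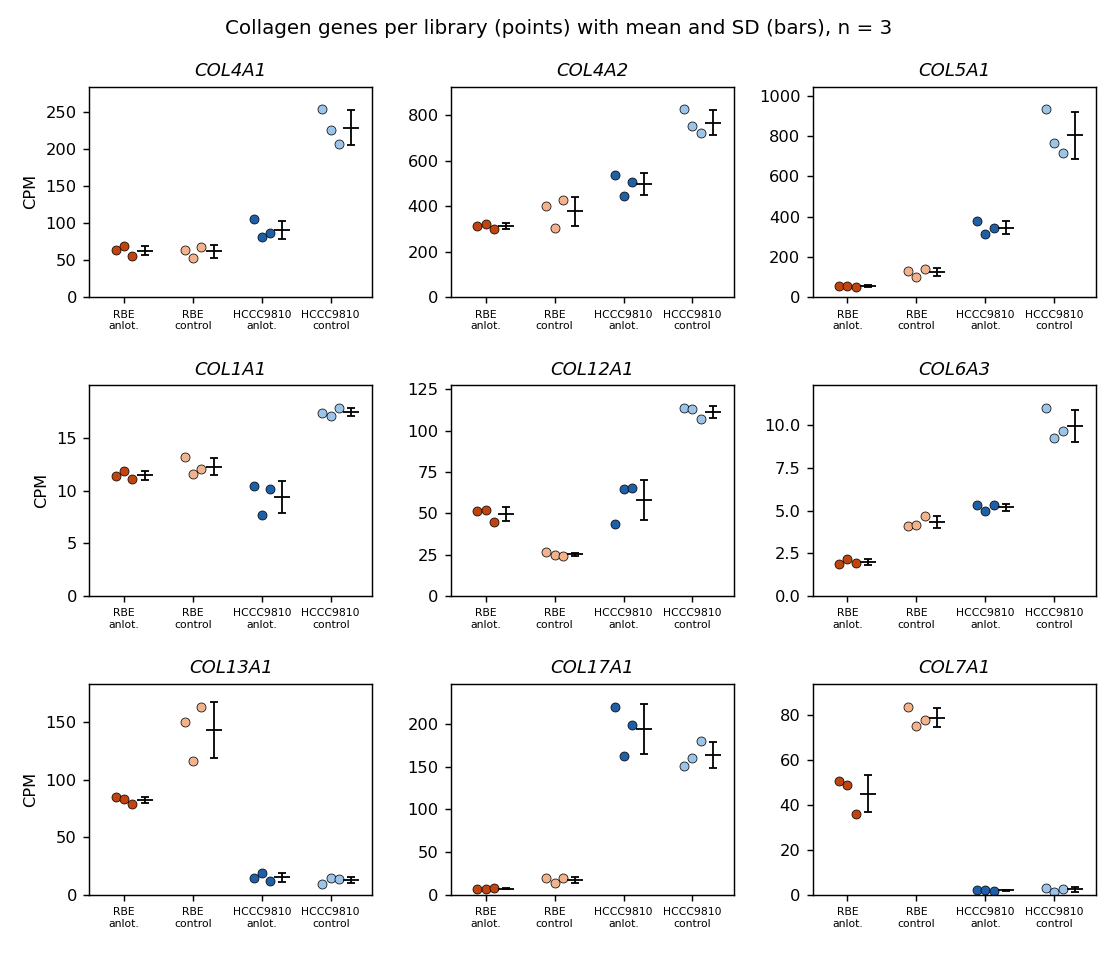
CPM of 9 collagen genes in each library (points) with the mean and SD of the 3 libraries of a group (bars); each vertical axis starts at 0 and the groups run from RBE anlotinib to HCCC9810 control. COL4A1 separates treated from control libraries in HCCC9810 and overlaps in RBE, COL13A1 and COL17A1 do the reverse, and COL12A1 separates in opposite directions.

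Type VI collagen forms beaded filaments beside basement membranes, and its COL6A3 chain fell in both lines. COL6A3 (chromosome 2, 237324003 to 237414375) had 1.88, 2.17 and 1.90 CPM in RBE anlotinib libraries, against 4.09, 4.15 and 4.71 CPM in control (log2 fold change -1.11 ± 0.15, adjusted p = 0.000192). In HCCC9810 it had 5.31, 4.95 and 5.33 CPM with anlotinib, against 11.02, 9.23 and 9.66 CPM in control (log2 fold change -0.94 ± 0.15, adjusted p = 0.000499). No treated library reached a control library of its line, and the difference of the effects was -0.18 ± 0.21 (adjusted p = 0.585). The more abundant COL6A1 was not called in either line. It had 74.96, 72.8 and 74.8 CPM in RBE anlotinib libraries, against 65.4, 61.6 and 69.7 CPM in control (0.18 ± 0.11, adjusted p = 0.321), without overlap. In HCCC9810 COL6A1 had 197, 145 and 189 CPM with anlotinib, against 148, 142 and 149.9 CPM in control (0.27 ± 0.11, adjusted p = 0.0910). Anlotinib library 11 was the low one there, and without it the gene was called up (0.41, adjusted p = 0.0116). COL6A2, whose chain joins COL6A1 and COL6A3 in a molecule, had 23.5, 22.7 and 25.4 CPM in RBE anlotinib libraries, against 30.1, 25.1 and 27.3 CPM in control (-0.21 ± 0.16, adjusted p = 0.428). In HCCC9810 COL6A2 had 1.42, 0.537 and 0.711 CPM with anlotinib, against 1.08, 0.849 and 1.16 CPM in control (-0.24 ± 0.31, adjusted p = 0.587), so it was not called in either line and its ranges overlapped in both.

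The 2 tested transmembrane collagens and the anchoring fibril collagen fell in RBE. COL17A1, the transmembrane collagen of hemidesmosomes (chromosome 10, 104031286 to 104085957), had 6.66, 7.11 and 7.54 CPM in RBE anlotinib libraries, against 19.3, 13.5 and 20.1 CPM in control (log2 fold change -1.32 ± 0.16, adjusted p = 5.13e-05). In HCCC9810, where it was far higher, it had 220.3, 163 and 199 CPM with anlotinib, against 151, 159.7 and 181 CPM in control (log2 fold change 0.24 ± 0.14, adjusted p = 0.226). The RBE libraries did not overlap, the HCCC9810 libraries did, and the effects differed by -1.57 ± 0.21 (adjusted p = 0.000314). COL13A1, a transmembrane collagen of cell-matrix contacts and of the neuromuscular junction (chromosome 10, 69801867 to 69964275), had 84.7, 82.7 and 79.1 CPM in RBE anlotinib libraries, against 150.4, 116 and 163 CPM in control (log2 fold change -0.80 ± 0.18, adjusted p = 0.00536). Its HCCC9810 values were 14.8, 19.2 and 11.6 CPM with anlotinib, against 9.54, 14.7 and 13.4 CPM in control (log2 fold change 0.27 ± 0.19, adjusted p = 0.311). Here too the RBE groups were separate and the HCCC9810 groups overlapped, and the effects differed by -1.08 ± 0.26 (adjusted p = 0.0130). COL7A1, which anchoring fibrils are made of (chromosome 3, 48564073 to 48595267), had 50.5, 48.97 and 35.8 CPM in RBE anlotinib libraries, against 83.8, 75.3 and 77.8 CPM in control (log2 fold change -0.81 ± 0.19, adjusted p = 0.00852). In HCCC9810 COL7A1 was near 2 CPM, with 2.052, 1.97 and 1.78 CPM under anlotinib and 3.02, 1.17 and 2.73 CPM in control (log2 fold change -0.24 ± 0.29, adjusted p = 0.563). A difference of the effects was not called for COL7A1 (-0.56 ± 0.35, adjusted p = 0.270), so its fall in RBE is not shown to differ from the value in HCCC9810.

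FACIT collagens attach to the surface of fibrils. COL12A1 (chromosome 6, 75084326 to 75206051) rose in RBE and fell in HCCC9810. It had 51.4, 52.3 and 44.6 CPM in RBE anlotinib libraries, against 26.4, 24.7 and 24.4 CPM in control (log2 fold change 0.97 ± 0.14, adjusted p = 0.000216). In HCCC9810 it had 43.8, 64.9 and 65.3 CPM with anlotinib, against 114, 113 and 107 CPM in control (log2 fold change -0.94 ± 0.14, adjusted p = 0.000263). Groups of both lines were free of overlap, and the difference of the effects was the largest called among the members, at 1.91 ± 0.19 (adjusted p = 3.35e-05). The control cells stood apart, at 2.09 ± 0.103 RPKM in RBE and 8.62 ± 0.334 RPKM in HCCC9810. The treated cells came to 4.28 ± 0.580 RPKM in RBE and 4.28 ± 0.891 RPKM in HCCC9810 (mean ± SD, n = 3 each). The deposited RPKM does not carry the TMM scaling of the CPM values. In CPM the treated cells had 49.4 ± 4.22 in RBE and 58.0 ± 12.3 in HCCC9810. In control cells these values were 25.2 ± 1.05 and 111 ± 3.55 CPM. The equal RPKM means thus do not show that the treated lines reached the same level. COL16A1, another FACIT, had 6.66, 5.58 and 5.96 CPM in RBE anlotinib libraries, against 4.09, 5.01 and 3.61 CPM in control (log2 fold change 0.53 ± 0.18, adjusted p = 0.0499). In HCCC9810 it had 8.92, 8.41 and 7.11 CPM with anlotinib, against 10.3, 7.48 and 7.69 CPM in control (-0.05 ± 0.18, adjusted p = 0.843). The RBE value lay at the threshold, and the call ended without RBE control 1 or 3, without any of the RBE anlotinib libraries, and without HCCC9810 control 8 or 9 or anlotinib 10 or 11 (adjusted p = 0.0518 to 0.174). COL9A3 was not called (0.17 ± 0.24 in RBE, -0.55 ± 0.24 in HCCC9810). COL21A1 had 67, 83 and 26 counts in RBE anlotinib libraries and 38, 30 and 34 in control (0.44 ± 0.25, not called), against 0 in each HCCC9810 anlotinib library and 1, 2 and 2 in HCCC9810 control libraries, too few for a fold change. Its difference of the effects had an adjusted p of 0.0503, which went below the threshold without RBE control 2 or RBE anlotinib 6 (adjusted p = 0.0338 to 0.0479).

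The multiplexins carry antiangiogenic end fragments. COL18A1 had 391, 417 and 375 CPM in RBE anlotinib libraries, against 484, 363 and 515 CPM in control (-0.20 ± 0.14, adjusted p = 0.377), and 304, 218 and 293 CPM in HCCC9810 anlotinib libraries, against 299, 260.4 and 263 CPM in control (-0.01 ± 0.14, adjusted p = 0.961). Both pairs of groups overlapped, so the most abundant collagen of RBE was not called in either line. The scarcer COL15A1 had 0.678, 0.985 and 0.759 CPM in RBE anlotinib libraries, against 0.323, 0.431 and 0.642 CPM in control (0.79 ± 0.33, adjusted p = 0.117). In HCCC9810 COL15A1 had 2.123, 1.79 and 1.14 CPM with anlotinib, against 2.35, 3.08 and 3.13 CPM in control (-0.77 ± 0.27, adjusted p = 0.0525). Neither effect was called although the groups did not overlap in either line, and the difference of the effects was 1.55 ± 0.43 (adjusted p = 0.0243). Without RBE control 3 or HCCC9810 control 7 the HCCC9810 effect was called (adjusted p = 0.0417 to 0.0483). The difference lost its call without RBE control 1, RBE anlotinib 5, HCCC9810 control 8 or 9 or HCCC9810 anlotinib 12 (adjusted p = 0.0541 to 0.0972).

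The remaining members, COL8A1, COL8A2 and COL26A1, averaged at most 1.41 RPKM in any group, the value of COL8A1 in HCCC9810 control cells. COL8A2, a network collagen of the cornea, had 7, 8 and 2 counts in HCCC9810 anlotinib libraries, against 13, 16 and 26 in control (log2 fold change -1.35 ± 0.47, adjusted p = 0.0482), and its call ended without any of the 6 HCCC9810 libraries, RBE control 2 or RBE anlotinib 4 or 5 (adjusted p = 0.0559 to 0.172), and with DESeq2 (adjusted p = 0.0656). COL8A1, its relative, had 9.06, 15.9 and 7.397 CPM in HCCC9810 anlotinib libraries, against 14.4, 14.004 and 12.7 CPM in control (-0.34 ± 0.24, adjusted p = 0.325), with anlotinib 11 high, and without that library it was called down (-0.73, adjusted p = 0.0267). COL26A1 was not called in either line (-0.01 ± 0.25 in RBE, -0.47 ± 0.32 in HCCC9810). Of the 15 tested members that are neither fibrillar nor type IV, 2 rose and 4 fell in RBE, and 3 fell in HCCC9810. Over all genes tested these shares were 9.37% and 8.32% in RBE and 12.8% in HCCC9810.

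How the chains of one type stood to each other was read from 6 RPKM ratios. Treated and control libraries of each line were compared by two-sided exact permutation tests, 12 in all, where 3 against 3 libraries cannot go below p = 0.1. Benjamini-Hochberg adjusted values over the 12 ran from 0.2 to 0.9. The design could not pass a threshold of 0.05, so the ratios are given as values. The size of a ratio rests on the gene lengths used in RPKM, which are the same in every library. The ratio of COL4A2 to COL4A1 averaged 3.83 ± 0.263 in RBE anlotinib and 4.68 ± 0.210 in RBE control cells, and 4.22 ± 0.292 in HCCC9810 anlotinib against 2.57 ± 0.0880 in HCCC9810 control cells (SD, n = 3 each, exact p = 0.1 in both lines). So the 2 chains were nearest to each other in HCCC9810 control cells, and the groups were separate in both lines and in opposite directions. The ratio of COL6A1 to COL6A2 was 3.14 ± 0.152 in RBE anlotinib and 2.41 ± 0.201 in RBE control cells (exact p = 0.1), against 227 ± 74.8 in HCCC9810 anlotinib and 146 ± 20.3 in HCCC9810 control cells (exact p = 0.2). The ratio of COL5A1 to COL5A2 was 9.20 ± 1.13 in RBE anlotinib and 32.1 ± 13.3 in RBE control cells (exact p = 0.1). It was 190.2 ± 52.2 in HCCC9810 anlotinib and 260.0 ± 55.7 in HCCC9810 control cells (exact p = 0.2). For COL1A1 to COL1A2 it was 52.1 ± 11.7 in RBE anlotinib and 32.8 ± 5.80 in RBE control cells (exact p = 0.1), and 21.2 ± 13.03 in HCCC9810 anlotinib against 46.2 ± 46.1 in HCCC9810 control cells (exact p = 0.5), with few COL1A2 counts behind each value. The ratio of COL4A5 to COL4A6 was 26.998 ± 7.23 in RBE anlotinib and 24.99 ± 5.23 in RBE control cells (exact p = 0.9), and 6.04 ± 1.63 in HCCC9810 anlotinib and 4.98 ± 0.907 in HCCC9810 control cells (exact p = 0.4). That of COL4A4 to COL4A3 was 1.82 ± 0.247 in RBE anlotinib and 2.19 ± 0.139 in RBE control cells (exact p = 0.1), and 2.94 ± 1.31 in HCCC9810 anlotinib and 3.08 ± 0.274 in HCCC9810 control cells (exact p = 0.8).

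**Figure D4:**
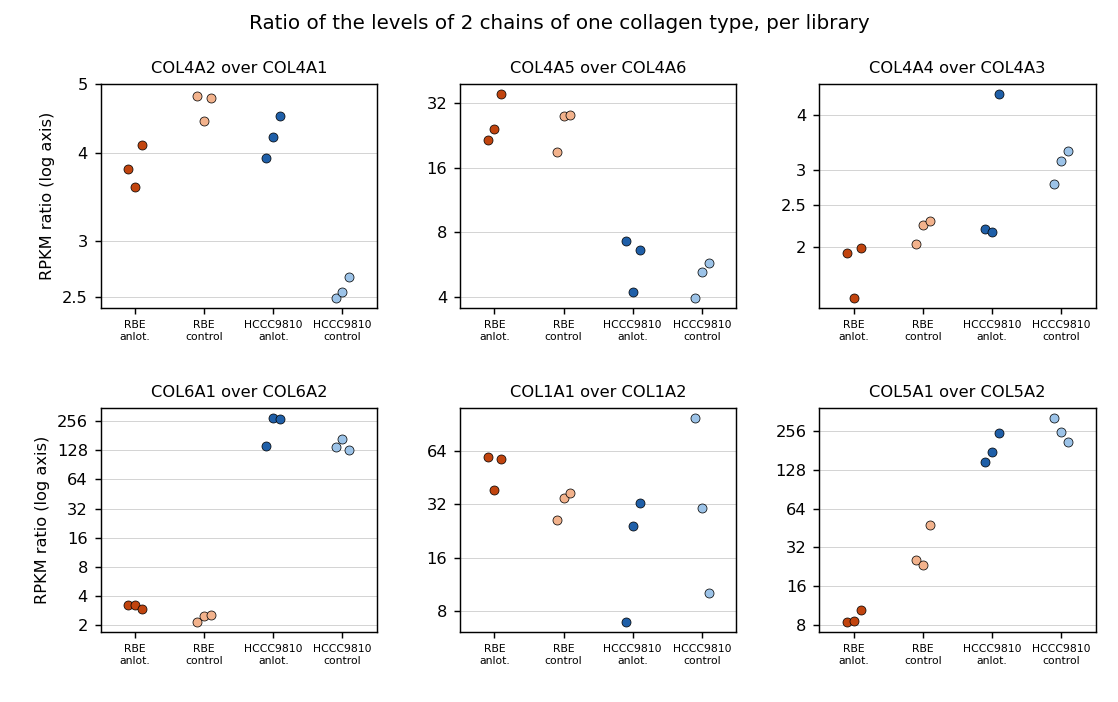
RPKM ratio of 2 chains of one collagen type in each library, on log axes that differ in range between panels; points are libraries and the groups run from RBE anlotinib to HCCC9810 control. COL4A2 over COL4A1 is lowest in the HCCC9810 control libraries, and COL6A1 over COL6A2 lies above 100 in all HCCC9810 libraries and below 4 in all RBE libraries.

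Collagen chains are hydroxylated, folded, exported, trimmed and crosslinked by dedicated proteins, and the genes of these steps moved in both directions. Of 19 genes of hydroxylases and chaperones, 4 rose and 5 fell in RBE, and 3 rose and 5 fell in HCCC9810. Beside these and the counts of the lists that follow, 9.37% of all genes rose and 8.32% fell in RBE, and 11.1% rose and 12.8% fell in HCCC9810. The prolyl 4-hydroxylase subunit P4HA1, whose product stabilises the triple helix, averaged 32.9 ± 4.01 CPM in RBE anlotinib and 32.8 ± 4.07 CPM in RBE control cells (0.01 ± 0.16, adjusted p = 0.991). It averaged 50.96 ± 12.3 CPM in HCCC9810 anlotinib against 25.1 ± 0.695 CPM in HCCC9810 control cells (log2 fold change 1.02 ± 0.16, adjusted p = 0.000449), and the effects differed (-1.02 ± 0.22, adjusted p = 0.00756). In RBE the subunit gene P4HA2 rose (0.45 ± 0.11), while P4HB, its partner and a disulfide isomerase (-0.54 ± 0.12), the collagen chaperone SERPINH1 (-0.48 ± 0.13) and the prolyl isomerase FKBP10 (-0.64 ± 0.13) fell. In HCCC9810 FKBP14 (-0.99 ± 0.15) and the lysyl hydroxylase PLOD2 (-1.03 ± 0.28) fell, and the lysyl hydroxylases PLOD1 (0.41 ± 0.14) and PLOD3 (0.48 ± 0.12) rose. P3H2, which hydroxylates prolines of type IV collagen, rose in RBE (0.40 ± 0.12, adjusted p = 0.0269) and fell in HCCC9810 (-0.71 ± 0.12, adjusted p = 0.000603), as did the galactosyltransferase COLGALT2 (0.57 ± 0.14 and -0.40 ± 0.14). CRTAP, a cofactor of P3H1, fell in both (-0.37 ± 0.11 in RBE, -0.47 ± 0.11 in HCCC9810). P3H3, a prolyl 3-hydroxylase, rose in RBE (0.76 ± 0.20).

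Of these hydroxylase and chaperone calls, P4HA1, FKBP14, P3H2 and CRTAP in HCCC9810 and FKBP10 in RBE passed the threshold with any 1 library left out. In RBE the P4HA2 call ended without control 1 (adjusted p = 0.0769), the P3H3 call without control 2 (0.0621) and the COLGALT2 call without either (0.0549 to 0.0595). The RBE call of P4HB ended without anlotinib 4 or 5 (0.0541 to 0.0584), that of SERPINH1 without control 1 or 3 or anlotinib 4 or 5 (0.0666 to 0.119), and that of P3H2 without control 1 or 2 or anlotinib 4 or 5 (0.0781 to 0.128). The RBE call of CRTAP ended without RBE control 1 or 3, RBE anlotinib 4 or 5, HCCC9810 control 8 or 9 or HCCC9810 anlotinib 10 or 12 (0.0510 to 0.208). In HCCC9810 the PLOD2 call ended without control 8 or 9 or anlotinib 10 or 12 (0.0604 to 0.0830) and the PLOD3 call without control 8 or 9 or anlotinib 12 (0.0537 to 0.0626). The PLOD1 call ended without HCCC9810 control 8 or 9, anlotinib 11 or 12, any RBE control or RBE anlotinib 4 or 5 (0.0529 to 0.216). The HCCC9810 call of COLGALT2 ended without any library other than RBE control 2 and 3 (0.0509 to 0.170). PLOD1 and SERPINH1 gained a call without 1 library, PLOD1 down in RBE without anlotinib 6 (0.0138) and SERPINH1 up in HCCC9810 without RBE anlotinib 6 or HCCC9810 control 7 (0.0450 to 0.0454).

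Of 13 export genes 2 fell in RBE and 3 in HCCC9810, and 0 rose in either, where 1 in RBE and 0 in HCCC9810 had a positive change at an unadjusted p below 0.05 and DESeq2 called 1 and 0 up. The COPII coat subunit SEC24D fell in RBE (-0.45 ± 0.11, adjusted p = 0.00810) and in HCCC9810 (-0.50 ± 0.10, adjusted p = 0.00324). So did CREB3L1, a factor that activates collagen and export genes (-0.70 ± 0.22, adjusted p = 0.0376 in RBE, -0.91 ± 0.19, adjusted p = 0.00305 in HCCC9810). The RBE call of CREB3L1 ended without any of the 6 RBE libraries or HCCC9810 control 8 (adjusted p = 0.0559 to 0.165). Its relative CREB3L2 fell in HCCC9810 (-0.49 ± 0.10, adjusted p = 0.00268).

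Of 14 genes of propeptide cleavage and crosslinking 13 were tested, with 1 up and 0 down in RBE and 1 up and 3 down in HCCC9810. In RBE 1 of them had a negative change at an unadjusted p below 0.05, and DESeq2 called 0 down. The crosslinking oxidase LOX had 2.497, 1.99 and 1.79 CPM in RBE anlotinib libraries, against 1.25, 0.647 and 0.733 CPM in control (log2 fold change 1.24 ± 0.32, adjusted p = 0.0129), and the call ended without control 3 or anlotinib 4 (adjusted p = 0.0531 to 0.0658). Its relative LOXL3 had 4.81, 4.42 and 4.98 CPM in HCCC9810 anlotinib libraries, against 18.1, 12.1 and 12.9 CPM in control (log2 fold change -1.60 ± 0.18, adjusted p = 3.51e-05), and 19.3% of its exon bases overlap another gene. LOXL4, a further member of that family, averaged 40.5 ± 5.09 CPM in HCCC9810 anlotinib and 76.1 ± 16.6 CPM in control cells (log2 fold change -0.91 ± 0.15, adjusted p = 0.000638). The procollagen peptidase ADAMTS14 fell too (-1.71 ± 0.36, adjusted p = 0.00375), from few counts. It had 8, 8 and 9 counts in HCCC9810 anlotinib libraries, against 27, 24 and 53 in control. PCOLCE, an enhancer of propeptide removal of which 16.6% overlaps another gene, rose in HCCC9810 (0.57 ± 0.19, adjusted p = 0.0421). PCOLCE was no longer called without HCCC9810 control 7 or 8, HCCC9810 anlotinib 10 or 12, RBE control 1 or RBE anlotinib 5 (adjusted p = 0.0510 to 0.138).

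**Figure D5:**
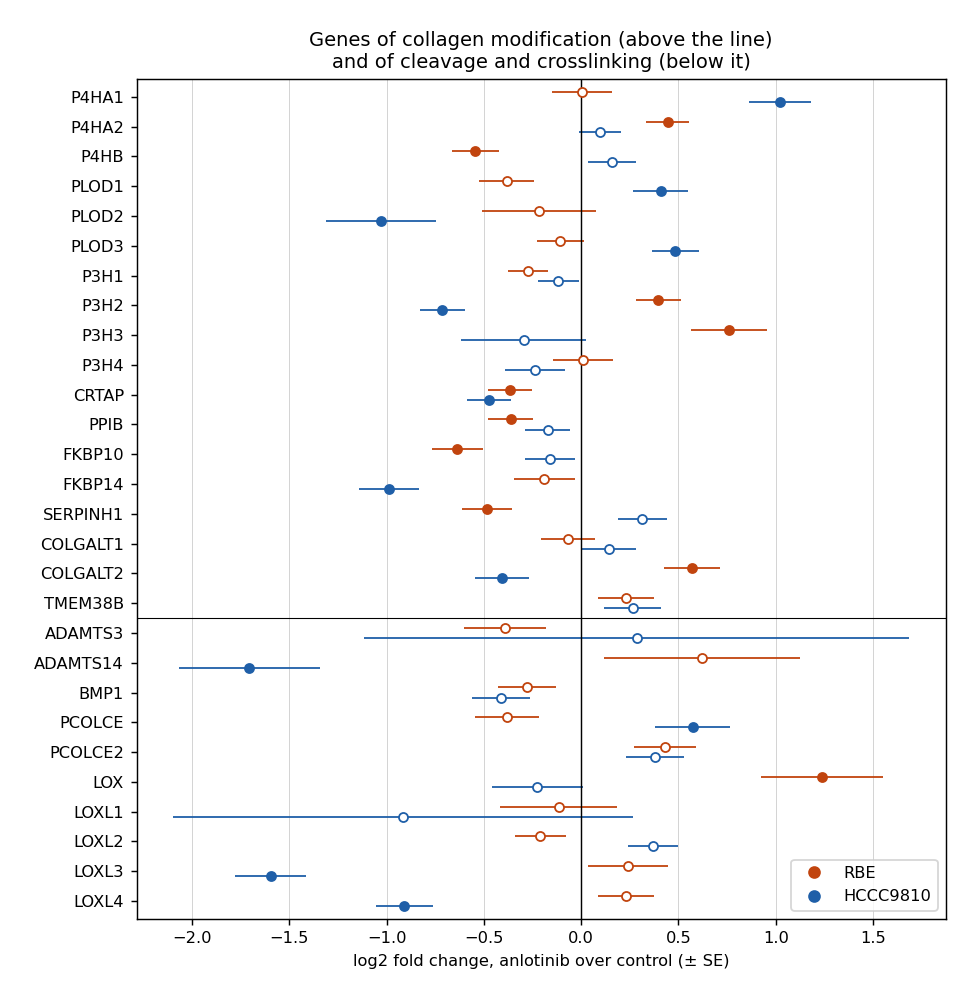
Log2 fold change, anlotinib over control, with its standard error, of the 28 collagen-processing genes with a mean of at least 1 CPM in some group, in RBE (orange-red) and HCCC9810 (blue); filled points have an adjusted p below 0.05. P4HA1 stands at 0.01 in RBE and 1.02 in HCCC9810, and LOXL3 at 0.24 in RBE and -1.60 in HCCC9810.

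Collagen receptors were not called in either line by edgeR, 0 of 9 tested of 12 listed. In RBE 1 had an unadjusted p below 0.05, DDR2 (0.95 ± 0.33, adjusted p = 0.0572), which DESeq2 called up. In HCCC9810 4 did, among them the integrin beta subunit ITGB1 (-0.45 ± 0.16, adjusted p = 0.0549), which DESeq2 called down. DDR2, a receptor for fibrillar collagen, was the 1 receptor with a called difference of the effects (1.67 ± 0.44, adjusted p = 0.0206), and both receptors are named here after their values were seen. The DDR2 difference lost its call without RBE control 1 or 3 or RBE anlotinib 5 (adjusted p = 0.0567 to 0.0641). Its RBE effect was called without RBE control 2, RBE anlotinib 6 or HCCC9810 anlotinib 11 or 12 (0.0237 to 0.0451), and its HCCC9810 effect without anlotinib 11 (0.0209). ITGB1 was called in HCCC9810 without RBE control 3 or RBE anlotinib 6 (0.0382 to 0.0471).

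Markers of the cell types that could be present were read beside these results. The 8 cholangiocyte markers read here summed to 6451 to 8297 CPM in RBE anlotinib and 5859 to 6513 CPM in RBE control libraries, and to 7102 to 7893 CPM in HCCC9810 anlotinib against 11559.8 to 16345 CPM in HCCC9810 control libraries. In RBE 2 of them rose and in HCCC9810 4 fell. KRT19, a bile duct keratin, rose in RBE (0.54 ± 0.14, adjusted p = 0.0161) and fell in HCCC9810 (-0.89 ± 0.14, adjusted p = 0.000594). The keratins KRT7 (-1.03 ± 0.19), KRT18 (-0.71 ± 0.13, with 16.3% of its exon bases shared with another gene) and KRT8 (-0.66 ± 0.14) fell in HCCC9810. There 5 of the 6 type IV chains and 12.8% of all genes tested fell too. In RBE the secreted phosphoprotein gene SPP1 (1.04 ± 0.18) rose. In RBE the KRT19 call ended without control 1 or 2 or anlotinib 6 (adjusted p = 0.0530 to 0.0859). The part of these markers in the collagen results was not tested.

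The 12 fibroblast markers summed to 83.7 to 104.6 CPM in RBE anlotinib and 91.4 to 108.4 CPM in RBE control libraries, and to 274 to 460.3 CPM in HCCC9810 anlotinib and 294 to 357 CPM in HCCC9810 control libraries. At most 6 of the 12 reached a mean of 1 CPM in a group, and PDPN had 0 counts in RBE control and HCCC9810 anlotinib libraries. Most of the HCCC9810 sum was FBLN1, a secreted fibulin (337 ± 86.6 CPM with anlotinib, 266 ± 38.2 CPM in control), which was called up without anlotinib 11 (adjusted p = 0.0414) and not with all libraries (0.34 ± 0.18, adjusted p = 0.191). Of the 8 tested, 2 rose and 1 fell in RBE, and 3 fell in HCCC9810. In HCCC9810, where 3 of the 7 tested fibrillar collagens and 12.8% of all genes fell, LUM, a proteoglycan that binds collagen fibrils, fell too. It had 16.4, 13.2 and 20.4 CPM in HCCC9810 anlotinib libraries, against 29.2, 32.5 and 41.7 CPM in control (log2 fold change -1.05 ± 0.20, adjusted p = 0.00200), and it was at or near 0 in RBE. DCN, a related proteoglycan, averaged 2.32 ± 1.41 CPM in HCCC9810 anlotinib and 3.43 ± 0.241 CPM in HCCC9810 control cells with no call. POSTN (-2.23 ± 0.52) and C7 (-1.40 ± 0.44) fell in HCCC9810, C7 not without control 8 or 9 or anlotinib 10 or 11 (adjusted p = 0.0642 to 0.151). Both falls rest on few counts. POSTN had 2, 3 and 7 counts in HCCC9810 anlotinib libraries, against 16, 19 and 38 in control. C7 had 22, 7 and 32 counts with anlotinib, against 31, 68 and 113 in control, and its ranges overlapped. In RBE the smooth muscle actin gene ACTA2, of which 30.1% overlaps another gene, rose (0.72 ± 0.15), as did the growth factor receptor gene PDGFRB (0.80 ± 0.21), while PDGFRA fell (-0.72 ± 0.20). PDGFRA averaged 22.97 ± 3.08 CPM in RBE anlotinib and 38.1 ± 6.31 CPM in RBE control cells and was at or near 0 in HCCC9810. The RBE call of PDGFRB ended without control 1 (0.0859) and that of PDGFRA without control 1 or 2 or anlotinib 4 (adjusted p = 0.0589 to 0.0859). Whether the fall of LUM bears on that of COL1A1, COL3A1 or COL5A1 was not tested.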

How the data were processed

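Total RNA of the cultures was extracted and sequenced as read pairs on an Illumina platform, per the labels' protocols. The counting program, annotation and strand setting are not given in the sources used here. HISAT2 and GRCh38 are named in the submitters' processing notes, without versions. The authors deposited raw counts per Ensembl gene and RPKM values, 1 column per library, per the file headers, and RPKM divided by the count share was constant for a gene within 0.0399%. All 58216 IDs matched GENCODE 29. Genes were filtered with filterByExpr, scaled by TMM and tested in edgeR 4.0.16 (R 4.3.3) with 4 group means over 12 libraries. SE is the absolute log2 fold change before edgeR's shrinkage over the square root of F, and the log2 fold changes given are the shrunken ones. CPM was computed from counts over TMM-scaled totals. Ratios were tested with scipy 1.17.1. Alternatives used DESeq2 1.42.0, limma 3.58.1 and mgcv 1.9.3, other filters and left-out libraries.

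Counts of 15215193 to 40963529 per library set the precision, and intervals were not computed for single shares. The replicates are called biological, and whether each was a separate culture is not given in the sources used here, so p-values measure the spread between these libraries. The members, gene lists and tests were chosen with earlier results of these data known. Genes described by library were those called in an effect or difference with a mean of at least 1 CPM in a group, with their chain partners, and from each other list at most 4 called genes per direction and line. Some cholangiocyte markers are not reported here.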

Additional observations from a re-analysis of the deposited data

Results flagged for a closer look

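The results below stood out because the effect of anlotinib differed between the lines in a test of the difference itself (edgeR's quasi-likelihood test, Benjamini-Hochberg adjusted p below 0.05 over all genes). Values are the log2 change in RBE minus that in HCCC9810, and the same control libraries enter each effect and its difference. Among collagens these were COL12A1 (1.91), COL15A1 (1.55), COL4A1 (1.37), COL11A2 (1.28), COL5A2 (1.26), COL1A1 (0.79), COL4A5 (0.75), COL13A1 (-1.08) and COL17A1 (-1.57). The differences of COL1A1, COL4A1, COL12A1, COL13A1 and COL17A1 passed with any 1 library left out. The COL4A5 difference was called without RBE anlotinib 6 or HCCC9810 control 7 and not without any other library (adjusted p = 0.0546 to 0.139). The calls also ended for COL5A2 without RBE control 3, RBE anlotinib 4 or 5, HCCC9810 control 8 or 9 or HCCC9810 anlotinib 11 or 12 (0.0566 to 0.0810) and for COL11A2 without any of these or RBE control 1 (0.0582 to 0.0874). The COL15A1 call ended without RBE control 1, RBE anlotinib 5, HCCC9810 control 8 or 9 or HCCC9810 anlotinib 12 (0.0541 to 0.0972).

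Of the enzymes and chaperones of collagen, P3H2 (1.11), COLGALT2 (0.98) and FKBP14 (0.80) had a positive difference and P4HA1 (-1.02), SERPINH1 (-0.80), PLOD1 (-0.79), P4HB (-0.70) and PLOD3 (-0.59) a negative one, and for the export factor CREB3L2 it was 0.62. Among the cleavage and crosslinking genes were ADAMTS14 (2.33), LOXL3 (1.84), LOX (1.46), LOXL4 (1.14) and PCOLCE (-0.95). The size of the ADAMTS14 difference rests on few counts. They were 10, 11 and 5 in RBE anlotinib libraries, against 4, 1 and 9 in RBE control. In HCCC9810 they were 8, 8 and 9 with anlotinib, against 27, 24 and 53 in control. The calls ended without 1 library for FKBP14 (RBE control 3, RBE anlotinib 4 or 5, HCCC9810 control 8 or 9, HCCC9810 anlotinib 12, adjusted p = 0.0519 to 0.0762) and for PLOD1 without the same libraries (0.0555 to 0.0633). The same held for P4HB (RBE control 3, RBE anlotinib 4 or 5, HCCC9810 control 8 or 9, 0.0530 to 0.0592), PLOD3 (RBE control 1 or 3, RBE anlotinib 4 or 5, HCCC9810 control 8 or 9, HCCC9810 anlotinib 12, 0.0781 to 0.111) and ADAMTS14 (RBE control 1, RBE anlotinib 4, HCCC9810 control 9, 0.0555 to 0.0624). It also held for LOX (RBE control 3, RBE anlotinib 4, HCCC9810 control 8 or 9, HCCC9810 anlotinib 12, 0.0517 to 0.0736) and PCOLCE (RBE anlotinib 4, HCCC9810 control 8, HCCC9810 anlotinib 12, 0.0526 to 0.0606).

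Among the cholangiocyte markers were KRT19 (1.42), KRT8 (0.90), KRT7 (0.89), KRT18 (0.86) and SPP1 (0.79). The difference of the collagen receptor DDR2 was 1.67 ± 0.44, and it lost its call without RBE control 1 or 3 or RBE anlotinib 5 (adjusted p = 0.0567 to 0.0641). The KRT7 difference was called without HCCC9810 control 8 or 9 and not without any other library (adjusted p = 0.0508 to 0.0817). The SPP1 difference was called without RBE control 2 or HCCC9810 anlotinib 12 and not without any other library (0.0532 to 0.109).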

How the results depend on the processing

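In 23 alternatives (22 for the difference of the effects) the collagen count moved by over 1.5 times with limma on log2(RPKM + 0.1) without a filter on low values, to 3 in RBE (8 in the edgeR test) and to 4 for the difference (9), and with left-out libraries for the difference. Over all genes, 830 fell in RBE with that limma setting in place of 1500, and 1245 rose in HCCC9810 in place of 1997. The difference was then positive for 1041 genes in place of 1608 and negative for 595 in place of 1382. Leaving out each library in turn gave 6 to 8 collagen genes in RBE, 8 to 12 in HCCC9810, 5 to 13 for the difference and 25 to 27 between the control lines; the difference fell to 5 without RBE anlotinib 5, HCCC9810 control 8 or 9 or HCCC9810 anlotinib 12 and reached 13 without RBE anlotinib 6. Called in every alternative were 3 of 8 collagen genes in RBE (COL5A1, COL12A1, COL17A1), 7 of 11 in HCCC9810 (all but COL3A1, COL4A4, COL4A5 and COL8A2), 4 of 9 differences (COL1A1, COL4A1, COL12A1, COL17A1) and 23 of 25 between lines (not COL1A1 and COL26A1). With DESeq2 the counts were 7, 9, 8 and 25. No collagen gene, and no other gene named here, had a call of the opposite sign in any of these alternatives. Unscaled library totals moved the median of all genes by 0.13 for the difference and 0.10 between lines, and the GC and length correction by 0.11 between lines. No paired analysis was possible because no replicate number is shared between groups. At this depth genes near 1 CPM, such as COL1A2, COL8A2, ADAMTS14 and POSTN, rest on few counts in a library.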
